A study of Rattus norvegicus with 3 samples.

Results

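The genes described here are 10 genes known from granule cells and unipolar brush cells of the cerebellar cortex, namely Neurod1, Pax6, Zic1, Zic2, Etv1, Cbln1, Cbln3, Calb2, Adcy1 and Fat2. They were found on the arrays through the RefSeq accession of each probe, and all 10 were matched, among 16654 named genes and 38973 genes in all. They were measured by 12 probes on 21 spots, of which none was marked as an outlier and all 21 were well above background on each array. Zic1 and Calb2 had 2 probes each and the others 1.

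The study asked how gene expression in the cerebellar cortex differs after a stroke of the opposite cerebral hemisphere, a remote effect called crossed cerebellar diaschisis. Male Wistar rats aged 9 weeks underwent transient right middle cerebral artery occlusion (MCAO) with an intraluminal filament, or a sham operation in which the right common carotid artery was exposed and not opened. The contralateral group was the left and the ipsilateral group the right cerebellar cortex of MCAO rats, and the control group was the left cerebellar cortex of sham rats, each taken 2 days after surgery. Tissue of 4 rats was pooled for the 1 array of each group. The paper lists 4 MCAO rats for the arrays, with both sides taken, so the contralateral and ipsilateral pools came from the same rats. Only MCAO rats within a set range of neurological deficit on the day after surgery were used, and the right cerebellar cortex of sham rats is not analysed here. With 1 array per group there was no spread between animals and no test, and each difference is one between pools.

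Granule cells are small excitatory neurons that fill the inner layer of the cerebellar cortex. They receive mossy fibres and send parallel fibres to the dendrites of Purkinje cells, where they release glutamate and secrete cerebellins that hold the synapse together. Unipolar brush cells are excitatory interneurons of the same layer, each with a brush-like dendrite that wraps a mossy fibre ending, and they relay and prolong mossy fibre input to granule cells. Both cell types arise from the rhombic lip. In bulk tissue, fewer cells of a type and less RNA per cell cannot be told apart.

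Neurod1, Pax6, Zic1, Zic2 and Etv1 encode transcription factors. Neurod1 drives differentiation and survival of granule neurons, Pax6 acts in the rhombic lip lineage, and the zinc finger factors Zic1 and Zic2 act in granule cell progenitors and neurons. Etv1 is an ETS factor that acts in granule cell maturation and is also expressed by unipolar brush cells. Cbln1 and Cbln3 encode secreted cerebellins, Calb2 encodes the calcium buffer calretinin, Adcy1 encodes a calcium- and calmodulin-stimulated adenylyl cyclase, and Fat2 encodes a large cadherin of parallel fibres. In the RefSeq annotation (GRCr8) Etv1 lies at chr6:61316836-61408985, Calb2 at chr19:55023849-55050858, Adcy1 at chr14:86125119-86234459 and Fat2 at chr10:39864765-39957027.

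Promoter windows of 250 bases upstream of the transcript start were read for Neurod1, Pax6, Zic2, Etv1, Adcy1 and Fat2 from RefSeq (GRCr8). The windows of Neurod1, a main granule cell factor, and of Zic2, the member with the highest ratio to the control on both sides, are shown. They were chosen because these genes lay on opposite sides of the control in the scaled data described below. Both ratios of Neurod1 lay within the scanner error, and without scaling both genes lay below the control ipsilaterally, at -0.70 and -0.26. The Neurod1 window is chr3:84770455-84770704 on the minus strand, next to the annotated gene (chr3:84766483-84770454), and the Zic2 window is chr15:105983092-105983341 on the plus strand, inside the annotated range of the gene (chr15:105982711-105988167). Capitals mark the GC box CCCGCCC on either strand, and neighbouring matches can overlap.
Neurod1: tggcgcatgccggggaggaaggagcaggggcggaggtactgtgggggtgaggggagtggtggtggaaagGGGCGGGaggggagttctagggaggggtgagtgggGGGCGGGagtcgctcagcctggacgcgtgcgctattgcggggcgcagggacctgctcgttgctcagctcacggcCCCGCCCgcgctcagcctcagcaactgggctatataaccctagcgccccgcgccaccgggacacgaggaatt
Zic2: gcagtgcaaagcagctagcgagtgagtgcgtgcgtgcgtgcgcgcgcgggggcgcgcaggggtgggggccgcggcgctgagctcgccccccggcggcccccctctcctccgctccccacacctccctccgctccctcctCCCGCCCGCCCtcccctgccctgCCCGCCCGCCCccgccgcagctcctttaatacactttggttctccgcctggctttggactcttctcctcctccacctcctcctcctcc
There were 3 matches in the Neurod1 window, 4 in Zic2, 2 in Etv1 and 2 in Adcy1, so that 4 of the 6 windows held this motif, against 21.0% of 33469 windows of the same length in the genome. The GC content of these 4 was 69.2%, 73.6%, 52.4% and 88%, against 52.2% over all windows, and the share was not compared at equal GC content. The E-box CAGCTG was in 1 of the 6 windows, that of Etv1, against 11.97% of all. A further E-box, read as CAGATG on either strand, was in 0 of the 6, against 13.96% of all. These matches are a description of letters in the windows.

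Intensities are given as log2 values after each array was shifted to a common 75th percentile. The error of a log2 ratio is the error per spot that the scanner software gives, combined over both arrays, and it was 0.20 for each ratio of 9 members and 0.21 for each ratio of Adcy1. It covers neither rats nor hybridisations. The threshold for an increase was a log2 ratio above 1, and for a decrease one below -1. Where 3 log2 intensities of a gene are given, they stand in the order contralateral, ipsilateral and control, and of a pair of ratios to the control the contralateral one stands first. Both comparisons with the control share the control array, and the comparison between sides shares both MCAO arrays with them.

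None of the 10 members was increased or decreased in the contralateral or ipsilateral cortex, or between the sides. They were read against the 11250 named genes whose probes were all well above background on each of the 3 arrays. Of those, 0.764% were increased and 0.658% decreased in the contralateral cortex, 1.68% were increased and 0.427% decreased in the ipsilateral cortex, and 0.169% were higher and 1.04% lower in the contralateral than in the ipsilateral cortex. At such shares a count of 0 among 10 genes does not set the members apart from the other genes. The scaling decides how these calls divide. Increased genes made up 53.8% of the called genes in the contralateral cortex and 79.7% in the ipsilateral cortex, and 31.1% and 9.41% when arrays were not scaled, or 40.6% and 46.3% after scaling to spike-in probes. After quantile normalization the ipsilateral share was 63.5%. Between the sides, 13.97% of the called genes were higher contralaterally, with 63.8% when arrays were not scaled, 33.3% after scaling to spike-in probes and 41.1% after quantile normalization.

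**Figure D1:**
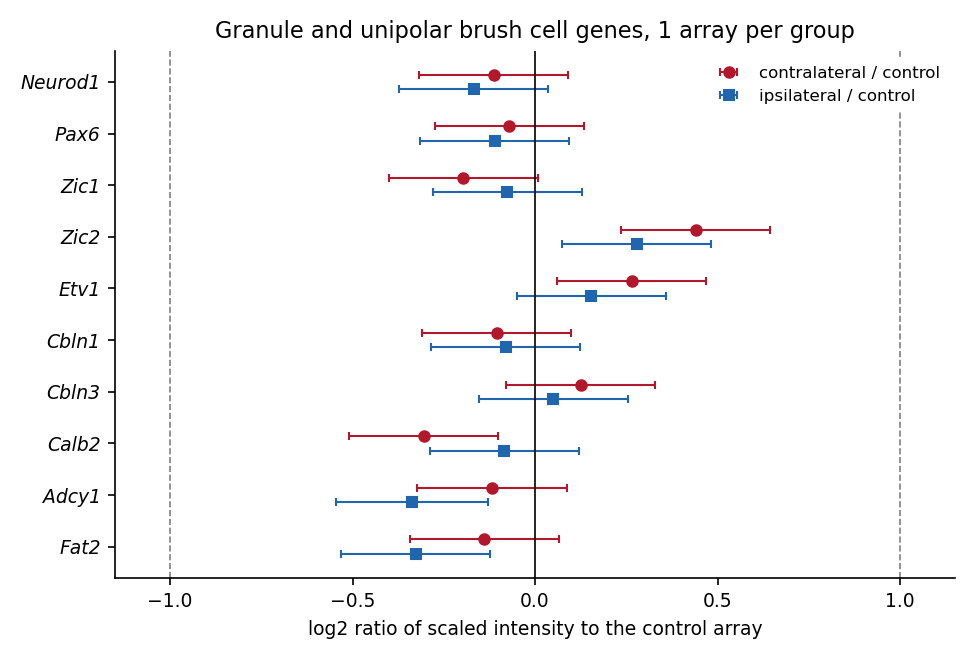
Log2 ratio of scaled intensity to the control array for each member gene in the contralateral (red circles) and ipsilateral (blue squares) cerebellar cortex, 1 array per group. Bars are the scanner error of the ratio (about 0.20) and dashed lines mark log2 ratios of -1 and 1. All points lie between -0.34 and 0.44.

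Neurod1 had a log2 intensity of 13.83 contralaterally, 13.77 ipsilaterally and 13.94 in the control. Its log2 ratios of -0.11 and -0.17 to the control lay within the scanner error. Over the alternatives the ipsilateral ratio ran from -0.70 to -0.12 and lay beyond the error under 4 of 10. For Pax6 the log2 intensities were 9.43, 9.40 and 9.50, with ratios of -0.07 and -0.11, also within the error, which the ipsilateral one passed under 2 of 10.

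Zic1 had a mean log2 intensity of 11.54 contralaterally, 11.66 ipsilaterally and 11.73 in the control over its 2 probes. The contralateral ratio was -0.20, just within the error of 0.20 and beyond it under 4 of 10 alternatives, and the ipsilateral ratio was -0.08. Its probes had contralateral ratios of -0.26 and -0.13 and ipsilateral ratios of -0.06 and -0.09, so both lay below the control on both sides, and the contralateral ratio of the former exceeded its error. With no scaling the order of the sides turned, from -0.12 for contralateral against ipsilateral to 0.27, and it also turned with spike-in scaling, to 0.04.

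Zic2 was the member furthest above the control. Its log2 intensity was 9.47 contralaterally, 9.31 ipsilaterally and 9.03 in the control, on 1 spot of each array. Both MCAO arrays were above the control by more than the scanner error, by 0.44 or 35.8% on the contralateral side and by 0.28 or 21.3% on the ipsilateral side, and the sides differed by 0.16, within it. Its percentile among the 11250 genes was 95.9 contralaterally and 87.2 ipsilaterally. Without scaling, the ipsilateral ratio was -0.26, and with spike-in scaling it was 0.03, within the error. Zic1 and Zic2, close relatives in sequence, thus lay on opposite sides of the control in the scaled data, and this difference was not tested.

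Etv1 had log2 intensities of 14.09, 13.98 and 13.82. The contralateral array was 0.27 or 20.2% above the control, beyond the scanner error, and the ipsilateral array 0.15 above it, within the error. Within the error lay the contralateral value without scaling, 0.12, and that scaled to spike-in probes, 0.19, where the ipsilateral value turned to -0.38 and -0.09.

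Cbln1, which links parallel fibre endings to Purkinje cell dendrites, had log2 intensities of 15.33, 15.36 and 15.44. Cbln3, which is secreted together with Cbln1, had 10.79, 10.71 and 10.67 in that order. The ratios to the control were -0.10 and -0.08 for Cbln1 and 0.13 and 0.05 for Cbln3, all within the scanner error. Quantile normalization brought Cbln1 to -0.25 and -0.27, both beyond the error, and its ipsilateral ratio was beyond it under 3 of 10 alternatives, down to -0.62. The ratios of Cbln3 turned negative without scaling, to -0.02 contralaterally and -0.48 ipsilaterally, and its ipsilateral ratio was also negative with spike-in scaling, at -0.19, and in the deposited table, at -0.01.

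Calb2 was the member furthest below the control on the contralateral side, and the one with the most spots. Over its 2 probes, the mean log2 intensity was 14.76 contralaterally, 14.98 ipsilaterally and 15.06 in the control. The contralateral ratio was -0.30, a change of -19.1%, beyond the scanner error, and the ipsilateral ratio was -0.08, within it. Between the sides the log2 ratio was -0.22, beyond the error, but it was within it under 7 of 10 alternatives, so this excess depends on the processing. Both probes lay in this order, with contralateral ratios to the control of -0.33 and -0.28, ipsilateral ones of -0.14 and -0.03, and ratios between the sides of -0.19 and -0.25.

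The probe of Calb2 with 10 spots gave the technical spread within an array. Contralaterally its spots ran from 14.84 to 14.91 with a median of 14.88, ipsilaterally from 15.04 to 15.11 with a median of 15.06, and in the control from 15.16 to 15.25 with a median of 15.21. The spots of the 3 arrays did not overlap, and the SD between spots was 0.028, 0.023 and 0.028. Spots of 1 array are not replicates of a condition, and a change of scaling shifts all spots of an array together. Without scaling, the ratio of Calb2 between the sides turned to 0.17, while its contralateral ratio to the control was -0.45.

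**Figure D2:**
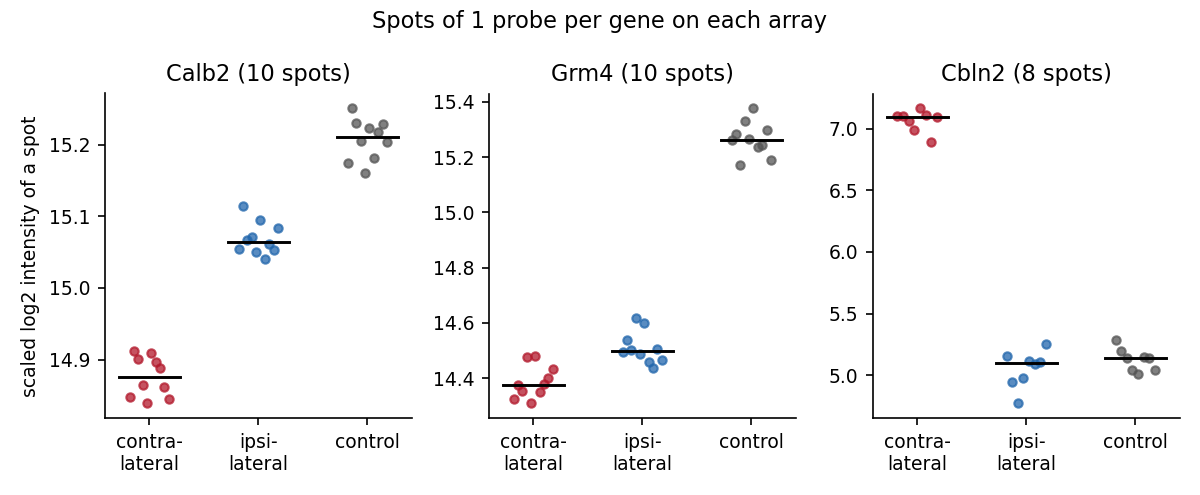
Scaled log2 intensity of each spot of 1 probe on the contralateral (red), ipsilateral (blue) and control (grey) arrays, for Calb2, Grm4 and Cbln2, with the median as a line and a separate axis for each gene. Calb2 spots are separate on the 3 arrays, Grm4 spots are lower on both MCAO arrays (medians 14.38 and 14.50) than on the control (15.26), and Cbln2 spots are higher on the contralateral array (median 7.10) than on the other arrays (5.10 and 5.14).

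Adcy1 and Fat2 were lowest on the ipsilateral array. Adcy1 had log2 intensities of 7.14, 6.92 and 7.26, and Fat2 had 10.99, 10.80 and 11.13. The ipsilateral ratios, -0.34 for Adcy1 and -0.33 for Fat2, were changes of -20.9% and -20.3% and exceeded the scanner error. The contralateral ratios of -0.12 and -0.14 did not. Between the sides, Adcy1 was 0.22 higher contralaterally, just beyond its error of 0.21, and Fat2 was 0.19 higher, within it; the former was 0.02 with normexp and 0.05 with 50 added to the signal, and the latter beyond the error under 4 of 10 alternatives. Background correction with normexp, run on median signals with an offset of 50, brought the ipsilateral ratio of Adcy1 to -0.0007 and its contralateral ratio to 0.02, and 50 added to the signal with no normexp brought them to -0.11 and -0.06.

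In the order of the 3 arrays, 7 members were highest in the control. Neurod1, Pax6, Adcy1 and Fat2 were lowest ipsilaterally, and Zic1, Cbln1 and Calb2 were lowest contralaterally. Zic2, Etv1 and Cbln3 were lowest in the control and highest contralaterally. Neighbours in these orders mostly did not differ beyond the scanner error, the exceptions being the sides for Calb2, ipsilateral and control for Zic2, and the sides for Adcy1. Ratios to the control beyond the error were found for 3 of 10 members contralaterally (Zic2, Etv1 and Calb2), where 27.4% of all 11250 genes had such a ratio, and for 3 of 10 ipsilaterally (Zic2, Adcy1 and Fat2), where 30.3% had. Between the sides the count was 2 of 10 (Calb2 and Adcy1) against 17.3%, and both came within the error under some alternatives, 7 of 10 for Calb2 and 2 of 10 for Adcy1. These shares are close to those of all genes.

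The median log2 ratio of the members was -0.11 contralaterally, -0.08 ipsilaterally and 0.07 between the sides. Over the 11250 genes the medians were 0.0012, 0.015 and -0.0081. On either side 3 members lay above 0 and 7 below, and 50.3% of the 11250 genes lay above 0 contralaterally and 53.4% ipsilaterally. The range from their 5th to their 95th percentile ran from -0.46 to 0.38 contralaterally and from -0.40 to 0.59 ipsilaterally. All members lay inside the ipsilateral range, and Zic2 lay outside the contralateral one. The ratios nearest to the members' median over the pair of comparisons (3 arrays, Euclidean distance) were those of Man2b1, Pak5 and Dpf1, at distances of 0.0017, 0.0028 and 0.0032. Of 11240 other genes, 1714 or 15.2% lay within 0.1 of it.

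**Figure D3:**
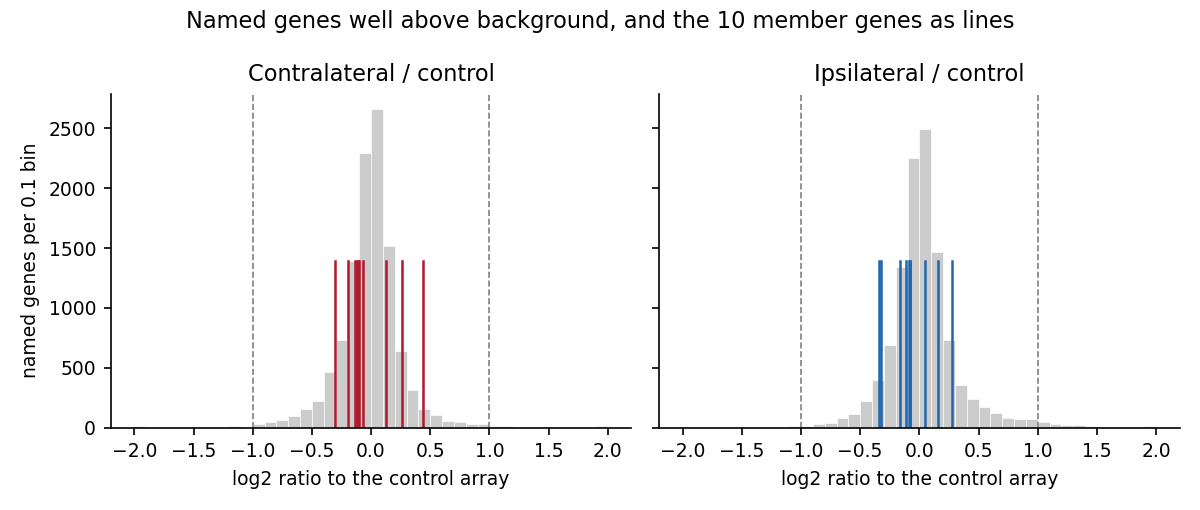
Histograms of the log2 ratio to the control array for the 11250 named genes whose probes were all well above background (grey, bins of 0.1, the outer bins holding all values beyond them), with each of the 10 member genes as a coloured line of arbitrary height. Dashed lines mark -1 and 1. The members lie from -0.30 to 0.44 contralaterally and from -0.34 to 0.28 ipsilaterally.

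The scaling between arrays moved all genes together. Without scaling, the median of the 11250 genes was -0.14 contralaterally, -0.52 ipsilaterally and 0.38 between the sides, and with scaling to 8 spike-in probes it was -0.08, -0.23 and 0.16. Members are therefore also given relative to the median of all these genes under the same setting. Settings that scale a whole array (none, median, spike-in and the deposited table) and leaving out dim probes cannot move such a value. Over the other 5 settings, Zic2 lay 0.37 to 0.45 above it contralaterally and 0.18 to 0.29 ipsilaterally, and Etv1 0.22 to 0.26 and 0.06 to 0.14. Calb2 ranged from -0.38 to -0.31 contralaterally, from -0.20 to -0.10 ipsilaterally and from -0.21 to -0.13 between the sides. Ipsilaterally, Fat2 ranged from -0.40 to -0.32 and Adcy1 from -0.36 to -0.09.

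Further genes of the same cells were read from lists. Of 18 further granule cell genes, 17 were matched and well above background, none was increased or decreased, and their median was 0.011 contralaterally and -0.10 ipsilaterally. Over the alternatives the former ran from -0.13 to 0.07. Contralaterally 8 of these 17 genes lay below 0, as did 7 of the 10 members. Ipsilaterally 11 of the 17 lay below 0, again beside 7 of the 10 members. The ipsilateral median of the 17 was negative under all 10 alternatives, from -0.63 to -0.0045.

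Grm4, the presynaptic metabotropic glutamate receptor of parallel fibres, stood furthest from the control in this list. The 10 spots of its probe ran from 14.31 to 14.48 contralaterally, from 14.44 to 14.62 ipsilaterally and from 15.17 to 15.38 in the control, with medians of 14.38, 14.50 and 15.26. The spots of both MCAO arrays thus lay below all control spots and overlapped each other. The log2 ratios, -0.88 and -0.76 with an error of 0.20, did not reach the threshold. They ran from -1.02 to -0.84 and from -1.29 to -0.74 over the alternatives, and they passed -1 on both sides only without scaling.

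Among 109 further genes of all lists with every probe well above background, 48 had a contralateral and 49 an ipsilateral ratio beyond the scanner error. Over the 11250 genes 27.4% and 30.3% had such a ratio. Only 25 and 17 of the list genes kept that excess and its sign under all 10 alternatives. No share over all genes is given for these kept counts. Between the sides 27 list genes had such a ratio, against 17.3% of all genes, and 10 kept it. The lists were chosen with earlier results of these data known, so these counts cannot set the list genes apart from all genes. The 48 include all 6 choroid plexus genes and 6 of the 8 leptomeningeal genes.

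GABA-A receptor subunits of granule cells lay above the control in the scaled data, and Grin2c and Slc17a7 lay below it. Gabra6 had log2 intensities of 13.13, 13.22 and 12.99, and Gabrd had 14.38, 14.38 and 14.16. Their ratios were 0.14 and 0.23 for Gabra6 and 0.22 and 0.22 for Gabrd. The contralateral ratio of Gabra6 lay within the scanner error of 0.20, and the others were just beyond it. Without scaling the ipsilateral ratios turned to -0.31 for both and the contralateral ratio of Gabra6 to -0.0018, and scaling to spike-in probes also brought the ipsilateral ratios below 0, to -0.02 for both. The NMDA receptor subunit Grin2c had log2 ratios of -0.27 and -0.37, and the vesicular glutamate transporter Slc17a7 had -0.25 and -0.36, each beyond the scanner error and negative under all 10 alternatives. With normexp Slc17a7 had -0.14 and -0.13, and with 50 added to the signal -0.17 and -0.14, all within the error.

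Among the remaining granule cell genes, the pan-neuronal Rbfox3 (NeuN) had log2 ratios of 0.07 and -0.01, Neurod2 0.01 and 0.04, Nfix 0.11 and 0.07, Nfib -0.20 and -0.10, and Meis1 -0.27 and -0.12. Barhl1 had 0.07 and -0.25, Chn2 -0.13 and -0.14, Cacng2 0.12 and 0.10, Kcnd2 0.16 and 0.09, Fgf14 -0.31 and -0.20, and Cntn1 -0.0049 and -0.08. Nfia, a factor of granule cell maturation, had 0.51 and -0.41, and its 2 probes disagreed contralaterally, at 1.05 and -0.03. Cadps2 was not matched and is not analysed here.

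Genes of granule cell precursors, a cell type of the developing cerebellum, formed a further list. Of 10 genes, 8 had every probe well above background, of which 7 lay below 0 contralaterally and 6 ipsilaterally, with medians of -0.16 and -0.15. The ipsilateral median was above 0 under 2 of the 10 alternatives. Atoh1, which defines the precursors, was not well above background on any array. Mki67 had 3 probes well above background on all arrays, with contralateral ratios of -0.11, 0.05 and 0.19 and ipsilateral ratios of 0.33, -0.08 and 0.48, and 1 probe that was so on the control array alone, where the control was at least 6.34-fold above the contralateral and at least 4.64-fold above the ipsilateral array. This bound compares the control with the lowest signal called well above background on the other array. The cyclin Ccnd2 had -0.90 and -0.70, with -1.04 to -0.38 and -1.23 to -0.07 over the alternatives, and passed -1 on both sides without scaling alone. Mycn had -0.33 and -0.25, Gli1 -0.12 and -0.18, Gli2 -0.15 and -0.24, Cntn2 -0.05 and -0.11, Dcx -0.16 and -0.02, and Barhl2 0.16 and 0.42. Sox11 had log2 intensities of 4.19, 5.39 and 4.74 and was lower contralaterally than ipsilaterally by more than the threshold, with a ratio of -1.20. Under the alternatives this ratio ran from -1.20 to -0.62.

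Of 8 further unipolar brush cell genes, 6 were matched, all well above background, with medians of -0.03 contralaterally and 0.07 ipsilaterally. Eomes was not matched and is not analysed here. Lmx1a was well above background on all arrays. Calb2 was so too, but it is itself a member and cannot check the label. The rhombic lip factor Lmx1a had ratios of -0.13 and 0.11, and the phospholipases Plcb4 and Plcb1 had 0.08 and 0.04, and -0.39 and -0.14. The 3 probes of Plcb1 disagreed contralaterally, with -0.91 on the dim one and -0.11 and -0.15 on those of higher intensity. None was increased or decreased. The vesicular glutamate transporter Slc17a6 had log2 intensities of 9.22, 8.72 and 9.25, so that the ipsilateral array alone was low, with ratios of -0.03 and -0.53. The ipsilateral ratio of Slc17a6 was negative under all 10 alternatives, from -1.06 to -0.44.

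Otx2, a factor of the rhombic lip lineage that choroid plexus epithelium also expresses, had log2 ratios of -0.03 and 0.30, and its ratio between the sides was -0.33, or 0.05 without scaling. Choroid plexus genes were also lower contralaterally than ipsilaterally, with a median of -1.07. Of 8 such genes, 6 had every probe well above background, with medians of -0.78 contralaterally and 0.44 ipsilaterally, and the summed scaled intensity of all 8 was 10188 contralaterally, 76173 ipsilaterally and 33545 in the control, nearly all of it from Ttr with 9879, 75457 and 33009. Ttr had ratios of -1.74 and 1.19, Slc4a5 had the lowest contralateral ratio at -2.12 and Clic6 the highest at -0.55. These 2 also lay below the control ipsilaterally, at -1.20 and -0.31, where the alternatives ran from -1.74 to -0.15 for Slc4a5 and from -0.85 to 0.31 for Clic6. The contralateral ratio of Slc4a5 ran from -2.27 to -0.55, short of the threshold with normexp and with 50 added to the signal, and the ipsilateral one of Ttr from 0.66 to 1.21. Of the others, Kl was not well above background contralaterally and Cldn2 on no array. The part of choroid plexus in the values of Otx2 was not tested.

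Partners of the cerebellins at the synapse included some with values beyond the scanner error, namely Nrxn2 and Nrxn3 contralaterally and Grid1 and Nrxn3 ipsilaterally. Grid1 had log2 ratios of -0.05 and 0.46, Nrxn2 -0.24 and -0.07, and Nrxn3 -0.32 and -0.23. The 3 probes of Nrxn3 differed, at -0.06, -0.79 and -0.10 contralaterally. Over the 5 genes of this list with every probe well above background, the medians were -0.05 and -0.07, and none was increased or decreased.

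Cbln2, a cerebellin best known from forebrain and brainstem neurons, differed from Cbln1 and Cbln3. It had a probe with 8 spots that were kept, which was well above background on all arrays, and a second probe that was not so on any. Spots of the former ran from 6.89 to 7.17 contralaterally, from 4.77 to 5.26 ipsilaterally and from 5.01 to 5.28 in the control, with medians of 7.10, 5.10 and 5.14. The contralateral spots lay above all others, and those of the ipsilateral and control arrays overlapped. This probe was increased contralaterally, with a log2 ratio of 1.94 and an error of 0.22, or 3.83-fold, and its ipsilateral ratio was -0.07. The contralateral ratio ran from 1.10 to 1.98 over the alternatives. The ratio between the sides was 2.01 and ran from 0.81 to 2.40, below the threshold with normexp and with 50 added to the signal. Cbln4, a further cerebellin, was well above background on the contralateral array alone, with a log2 ratio to the control of 0.65 and an error of 0.41. Over 9 alternatives that ratio ran from 0.21 to 0.71. In the scaled data Cbln4 was at least 1.19-fold above the lowest signal called well above background on the ipsilateral array. Its ratio between the sides was negative under 2 of 9 alternatives, down to -0.27.

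Forebrain neuron genes were read beside Cbln2. Of 8, all were matched and 3 had every probe well above background, and the summed scaled intensity of all 8 was 1668 contralaterally, 1658 ipsilaterally and 1597 in the control. Nrgn, a calmodulin-binding protein of forebrain neurons, had log2 intensities of 7.34, 5.31 and 5.52 and was increased contralaterally, with a ratio of 1.82 that ran from 1.19 to 1.86 over the alternatives, against -0.21 ipsilaterally. Neurod6, the brightest gene of the list, had -0.06 and 0.06 and Lamp5 -0.03 and -0.05. Tbr1 and Ddn, which mark forebrain neurons, were not well above background on any array. Camk2a had 1 of its 2 probes above background on all arrays, with ratios of -0.13 and 0.29. Its other probe, not well above background in the control, had ratios of 0.75 and 0.79 with errors of 0.41 and 0.44. Of 9 genes of brainstem and deep nuclei, 8 were matched and 2 had every probe well above background, Spp1 with ratios of -0.21 and -0.50 and Th with -0.15 and -0.06. Over all 8 matched genes, dim ones included, the summed scaled intensity was 1036, 981 and 1147. Hoxa2, a gene of the hindbrain, had 1 of its 2 probes well above background on all arrays, with ratios of 0.63 and 0.71. Ecel1 also had 1 of 2 probes well above background on all arrays, and its ratios were -0.22 and -0.20. Tph2, Slc6a2 and Hoxb3 were not well above background in the control, so lower bounds in the scaled data are given. Tph2 was at least 2.10-fold above it contralaterally and 2.52-fold ipsilaterally, 1 of 3 probes of Hoxb3 at least 2.22-fold ipsilaterally, and Slc6a2 at least 1.28-fold contralaterally. On the log2 scale the bounds of Tph2 were 1.07 and 1.34, from 1 spot with ratio errors of 0.55 and 0.56. Over 9 alternatives its ratios ran from 0.28 to 1.47 and from 0.60 to 1.71, partly below these bounds. The part of other tissue in the values of Cbln2 was not tested.

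Of 9 further adenylyl cyclases, 7 had every probe well above background, with medians of -0.16 contralaterally and 0.12 ipsilaterally, and none was increased or decreased. Adcy8, the other calcium-stimulated enzyme with Adcy1 in cerebellum, had ratios of -0.16 and -0.05. The rest were Adcy2 with -0.33 and -0.42, Adcy3 with 0.29 and 0.36, Adcy4 with -0.22 and 0.18, Adcy5 with 0.09 and 0.12, Adcy6 with -0.18 and 0.12, and Adcy9 with 0.19 and 0.02. The probes of Adcy6 disagreed, with -0.40 and 0.26 on the dim one and 0.05 and -0.02 on the bright one. Adcy10 was not well above background on any array, and Adcy7 had 1 of 3 probes above it on all arrays, with ratios of -0.28 and -0.13. Of these, Adcy2 had the lowest ipsilateral ratio, beside -0.34 for Adcy1. Over the alternatives that ratio of Adcy2 ran from -0.95 to -0.02. Of the Fat cadherins beside Fat2, Fat1 had -0.01 and -0.12 and Fat3 -0.39 and -0.57, and Fat4 was not matched. The ipsilateral ratio of Fat3 ran from -1.11 to -0.01 over the alternatives. Zic4 and Zic5 were likewise not matched and are not analysed here.

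**Figure D4:**
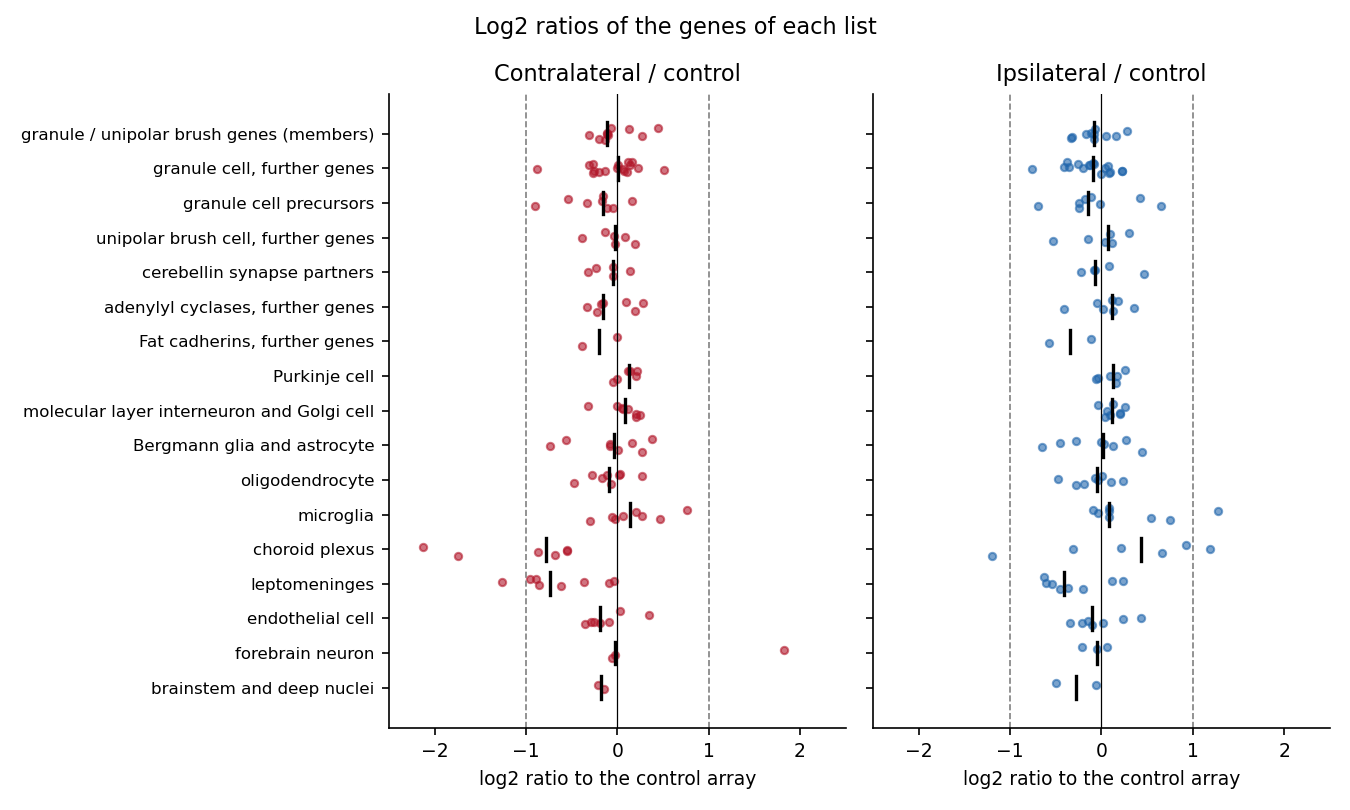
Log2 ratio to the control array of each gene with every probe well above background, by list, in the contralateral (red) and ipsilateral (blue) cortex; black bars are list medians and dashed lines mark -1 and 1. The lists of granule, unipolar brush and Purkinje cells have medians between -0.16 and 0.13 on both sides, and choroid plexus and leptomeninges have the lowest contralateral medians, -0.78 and -0.74.

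The labelled tissue was checked against its other cell types. Of 8 Purkinje cell genes, 6 had every probe well above background, with medians of 0.13 contralaterally and 0.12 ipsilaterally; Itpr1 was the brightest with 0.22 and 0.17, and Pcp2 the lowest contralaterally with -0.04 and -0.04. Foxp2 had 1 of 2 probes well above background on all arrays, with ratios of 0.60 and -0.04 and errors of 0.23 and 0.26, and the other was so on no array. The summed scaled intensity of the 7 matched Purkinje cell genes was 178538, 177191 and 164010.0, while that of the 10 members was 109218, 112459 and 117463. All 8 interneuron and Golgi cell genes were well above background, with medians of 0.09 and 0.11 and a contralateral ratio of 0.20 for Pvalb, the brightest. Grm2 was the lowest with -0.32, the mean of a dim probe at -0.60 and a bright one at -0.05, and ran from -0.47 to 0.01 over the alternatives. All 8 Bergmann glia and astrocyte genes were so too, with medians of -0.04 and 0.02, from Gfap at -0.74 to Gdf10 at 0.38, and 0.27 for the brightest gene Aldoc.

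Oligodendrocyte genes, all 8 well above background, had medians of -0.09 and -0.05, from Cnp at -0.47 to Mobp at 0.27 contralaterally. Microglial genes, all 8 well above background, had medians of 0.13 and 0.08, from Aif1 at -0.30 to Cx3cr1 at 0.77 contralaterally, and Cx3cr1 was increased ipsilaterally at 1.27, though not without scaling, at 0.74. Leptomeningeal genes, all 8 well above background, had medians of -0.74 and -0.41, from Col1a1 at -1.27 (-0.98 by its brightest probe) to Dcn at -0.04, with -0.09 for Ptgds. Endothelial genes, 7 of 8 matched, had medians of -0.19 and -0.10, from Tek at -0.35 to Abcb1a at 0.35, with -0.29 for Slco1c1. Without scaling, the ipsilateral median of every list was below 0, from -0.95 for leptomeninges to -0.10 for choroid plexus, and the contralateral medians of the Purkinje cell, interneuron and microglial lists turned to -0.02, -0.06 and -0.01. The part of these cell types in the members' values was not tested.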

How the data were processed

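The authors labelled the RNA with Cy3, hybridised it to Agilent arrays of 1 colour and deposited spot intensity values from Agilent Feature Extraction 12.1.0.3, which subtracts background and spatial trends and does not scale between arrays. A deposited table of intensity values held the same signals times 1 factor per array (1.12, 1.45 and 1.04 for the contralateral, ipsilateral and control arrays). Whether these factors are the normalization to control samples named in the methods is not given in the sources used here. All 3 arrays lay on 1 slide and were read in 1 scan. Of 58717 spots that are not controls, 42470, 43028 and 43283 were well above background on these arrays in the same order.

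Log2 processed signals were shifted to a common 75th percentile after leaving out 759 outlier spots. Spots were averaged per probe, then probes per gene. Of 39957 accessions, 17622 matched 1 symbol in RefSeq (GRCr8). Ratios beyond 1 on the log2 scale, the threshold of the methods, were called; with 1 array per group no test was possible, and the number of arrays limits the precision. Spike-in probes numbered 8.

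The members and the 17 further lists were chosen with earlier results of these data known. Named genes were all members, every gene found of the lists of granule, precursor, unipolar brush, cerebellin, Zic, adenylyl cyclase and Fat genes, and of each list of another cell type (Purkinje, interneuron and Golgi, Bergmann glia and astrocyte, oligodendrocyte, microglia, choroid plexus, leptomeninges, endothelium, forebrain, brainstem and deep nuclei) its brightest gene and those with the highest and lowest contralateral ratio; others, such as defining genes not above background, were named after their values were seen. Some genes that these rules name are not reported here. Likeness was Euclidean distance over the pair of ratios to the control.

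There were 10 alternatives. For scaling they were none, a shift to the median, a shift to spike-in probes, and quantile normalization. The others were normexp (offset 50, on median signals, as the files used here had no mean signals), the deposited table, 50 added to each signal, leaving out dim probes, taking only the brightest probe of a gene, and keeping outlier spots. The counting was tested on simulated data. Python 3.11.15, numpy 2.4.6, pandas 2.3.3, matplotlib 3.10.9, R 4.3.3 and limma 3.58.1 were used.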

Additional observations from a re-analysis of the deposited data

Results flagged for a closer look

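A few genes of the lists had log2 ratios to the control of opposite sign on the sides, each beyond the scanner error, and this difference was not tested. The granule cell factor Nfia had 0.51 contralaterally and -0.41 ipsilaterally, with 2 probes that disagreed. The precursor gene Sox11 had -0.54 and 0.66 in the same order. Genes of choroid plexus were in the same position, namely Ttr with -1.74 and 1.19, Folr1 with -0.87 and 0.93, Kcnj13 with -0.68 and 0.21, and Aqp1 with -0.56 and 0.66, while Slc4a5 (-2.12 and -1.20) and Clic6 (-0.55 and -0.31) lay below the control on both sides. Under 2 of the 10 alternatives the ipsilateral ratio of Nfia was positive, up to 0.10, and that of Kcnj13 negative under 2, down to -0.32; the signs of Sox11, Ttr, Folr1 and Aqp1 held under all 10. None of the 10 granule and unipolar brush cell genes was among them.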

How the results depend on the processing

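Under the 10 alternatives no member passed a log2 ratio of 1 or -1. Of 300 member values, 54 could not move, since their probes and spots stayed the same; of the other 246, 214 moved by less than the scanner error and 32 by more, of which 20 were without scaling, 10 with spike-in scaling, 1 with normexp and 1 with 50 added to the signal. The median ipsilateral ratio of the members moved to -0.62 without scaling and to -0.33 with spike-in scaling, and their median between the sides to 0.45 without scaling; these alternatives shift all spots of an array alike. Relative to the median of all 11250 genes, the members' median lay, over the 5 alternatives that can move it, between -0.13 and -0.08 contralaterally, -0.17 and -0.10 ipsilaterally, and 0.05 and 0.11 between the sides. Counts of called genes ran from 22 to 97 increased and 15 to 131 decreased contralaterally (86 and 74 as reported), from 40 to 198 and 7 to 385 ipsilaterally (189 and 48), and from 2 to 60 and 8 to 118 between the sides (19 and 117). No paired analysis was possible because each group had 1 array and no result came from a test. The single array per group, the pools, and spot errors that cover no biological spread limit every value.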
